A study of Homo sapiens with 16 samples.

Results

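Dense clusters of open chromatin sites were described in DND41 and MOLT4, established cell lines from human T-cell acute lymphoblastic leukaemia. Open chromatin had been mapped by ATAC-seq, in which a transposase inserts sequencing adapters into accessible DNA. Peaks of all 16 libraries on chromosomes 1 to 22 and X were merged where they shared 1 base, which gave 131357 regions, and the 45121 regions with a peak in at least 4 libraries were kept. Regions separated by 12500 bases or less were chained. The members were the 539 regions, 1.19% of the 45121, that lay in the 56 chains of 8 or more. Each member is called a site and each chain a cluster.

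The libraries formed 8 groups of 2, namely MOLT4 and DND41 with 100 nM ACBI-1 or with DMSO, the solvent control, after 24 h or 3 h. The labels give no genetic modification of either line and no agent besides ACBI-1 and DMSO. The sample titles set the groups, since the cell line field names the other line in 8 of the 16 samples. Nothing in the labels ties the 2 libraries of a group to separate cultures, and the p-values below therefore describe spread among libraries that may be technical. The deposited lists hold peak positions only, read depth is unknown, and a site without a peak may still have carried reads. The tags inside the peak names differ between the 24 h and the 3 h lists, so time and any calling setting that went with it cannot be told apart.

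SWI/SNF complexes use the ATPases SMARCA4 or SMARCA2 to slide and evict nucleosomes, and they keep many enhancers and some promoters accessible. ACBI-1 is a bifunctional degrader that brings SMARCA2, SMARCA4 and the accessory subunit PBRM1 to the VHL ubiquitin ligase for destruction. In lymphoid cells, long stretches with many open sites often surround lineage genes, and they also occur over gene-dense promoter tracts and over repeated gene families such as histone and antigen receptor genes.

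The clusters lay on 21 chromosomes and covered 2.94 Mb in all. They held 8 to 21 sites, with a median of 9, and 25 of them held exactly 8. Their length ran between 29.8 kb and 153 kb with a median of 46.8 kb, and neighbouring sites lay a median of 4.86 kb apart. In each cluster of n sites the first and the last n/4, rounded down, were called edge sites and the others centre sites, which gave 242 edge and 297 centre sites. In DMSO libraries the median peak width was 395 bp at edge sites and 395 bp at centre sites, and edge sites had a peak in a mean of 11 libraries against 10.8 for centre sites.

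The sites were selected on peak presence in at least 4 libraries and on spacing, without regard to treatment. Still, 31 sites, 5.75% of the members, passed with no peak in any ACBI-1 library, against 9.28% of all regions. A further 3 sites passed with none in any DMSO library. Peaks in all 16 libraries were found at 155 sites, 28.8% of the members, against 26.7% of all regions. At the border of the rule, the 25 chains of 8 sites averaged 59.1% of sites with a peak in ACBI-1 libraries and 80.7% in DMSO libraries, and the 48 chains of 7 sites, which were not members, averaged 59.5% in ACBI-1 libraries and 80.0% in DMSO libraries. Of all regions, 5585 had a peak in exactly 4 libraries and were kept, while 6966 had one in exactly 3 and were not.

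Clusters are given by hg19 position. The gene names attached to them are general knowledge of the genome and not part of the deposited lists, and only the chromosome of each name was checked, against RefSeq for GRCh38.p14. The clusters were found around T-cell genes such as RUNX1, TCF7, LEF1, PTPN6, ITGA4 and FASLG, around the interval upstream of IL7R, in promoter tracts such as those of PER1 and AURKB or of NFKB2, in the immunoglobulin heavy chain, T-cell receptor beta and T-cell receptor gamma loci, in 2 histone gene tracts on chromosome 6, and next to the centromeres of chromosomes 15 and 16.

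Fewer sites of the clusters had a peak with ACBI-1, at the edge and in the centre alike. Of the 539 sites, 57.7 ± 2.73% had a peak in ACBI-1 libraries and 77.9 ± 3.78% in DMSO libraries (SD over n = 8 libraries of both lines and times), a difference of -20.1 points (SE 1.79). Edge sites had a peak in 57.9 ± 3.22% of cases with ACBI-1 and in 79.1 ± 3.95% with DMSO, a difference of -21.2 percentage points (SE 1.92). Centre sites had one in 57.6 ± 2.89% with ACBI-1 and in 76.9 ± 3.77% with DMSO, a difference of -19.2 points (SE 1.85). The size depended on the rule for sites: with regions in at least 8 libraries, which left 11 clusters, edge sites differed by -12.8 points, and with a gap of at most 5 kb, which left 1 cluster, members differed by -11.4, edge sites by -12.5 (exact permutation p = 0.125) and centre sites by -10.7 points (exact permutation p = 0.0556). Under the rule used throughout, each of the 3 differences had the smallest p the design allows, p = 0.00154, in an exact two-sided permutation test that exchanged treatment labels within line and time over 1296 arrangements, and p = 0.00222 after adjustment over the 23 measures tested. Every ACBI-1 library was lower than both DMSO libraries of its line and time, so all 16 pairs of 1 ACBI-1 and 1 DMSO library of the same line and time went the same way.

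The single libraries lay close together within most groups. In MOLT4 at 24 h, edge sites with a peak made up 57.4% and 58.3% with ACBI-1, against 84.3% and 78.9% with DMSO, and centre sites 59.3% and 57.6% with ACBI-1, against 81.5% and 78.1% with DMSO. In MOLT4 at 3 h the edge shares were 62.8% and 60.3% with ACBI-1 against 77.7% and 80.2% with DMSO, and the centre shares 56.2% and 61.6% with ACBI-1 against 78.1% and 77.4% with DMSO. The groups did not overlap at either time in MOLT4.

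In DND41 at 24 h the edge shares were 55.4% and 55% with ACBI-1 against 78.1% and 76.9% with DMSO, and the centre shares 56.6% and 54.5% with ACBI-1 against 74.1% and 74.7% with DMSO. In DND41 at 3 h the edge shares were 53.3% and 60.3% with ACBI-1 against 84.3% and 72.3% with DMSO, and the centre shares 53.9% and 61.3% with ACBI-1 against 80.8% and 70.0% with DMSO. The DND41 libraries at 3 h had the widest spread within a group, though ACBI-1 and DMSO still did not overlap. With 2 libraries a group, no exact permutation test within 1 line at 1 time could go below p = 0.333, and none within 1 line or 1 time below p = 0.0556.

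**Figure D1:**
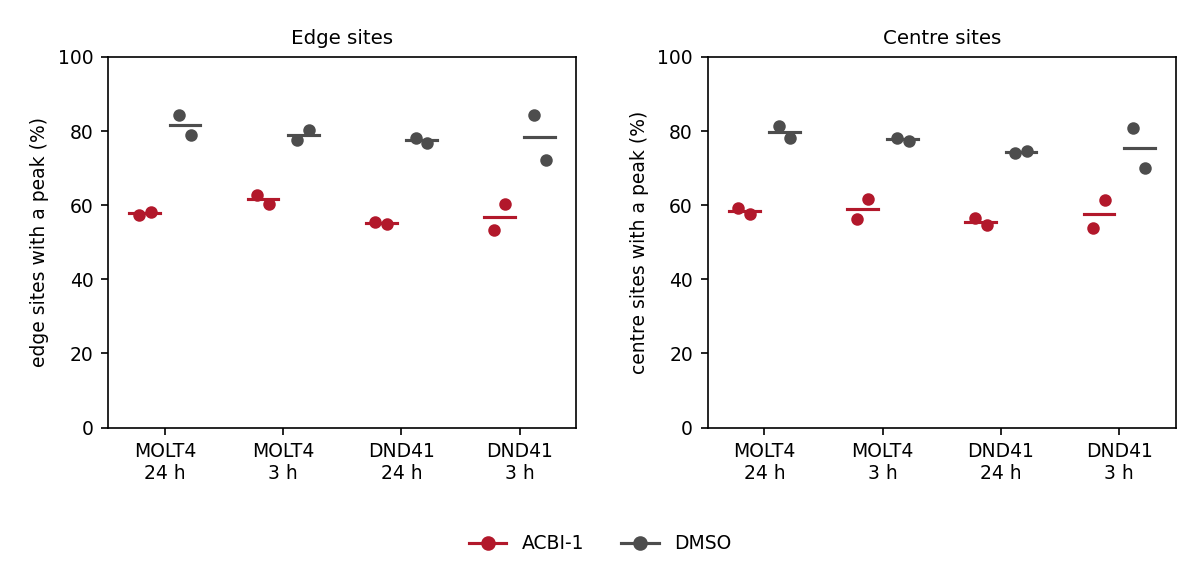
Percentage of the 242 edge sites (left) and of the 297 centre sites (right) with a peak in each library, by line and time, with ACBI-1 in red and DMSO in grey. Each point is 1 library and each bar the mean of 2; every ACBI-1 point lies below both DMSO points of its line and time, at the edge and in the centre.

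The deposited lists themselves were shorter with ACBI-1, which bears on every share above. They ran between 26145 and 33870 peaks in the 8 ACBI-1 libraries and between 39117 and 46712 in the 8 DMSO libraries. When every list was cut to its 26145 widest peaks, 14 clusters remained, and the ACBI-1 minus DMSO difference in sites with a peak was 0.286 points (exact permutation p = 0.901). Cut lists hold the number of peaks equal in all libraries, so they cannot show a general loss of peaks, and a difference near 0 was largely set in advance. Edge sites then differed by -1.94 points (p = 0.560) and centre sites by 2.05 points (p = 0.355, same exact permutation test). The share of all 45121 regions with a peak was 53.9 ± 4.34% in ACBI-1 libraries and 73.3 ± 4.11% in DMSO libraries (SD, n = 8), and that of isolated regions, those with no other within 12500 bases, 53.6 ± 4.61% in ACBI-1 libraries and 72.2 ± 4.67% in DMSO libraries.

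The difference with ACBI-1 was not shown to be larger in dense clusters than at isolated regions. Dense minus isolated gave -1.59 points (SE 0.87, p = 0.0972, exact permutation test), with 12 of 16 pairs in that direction. With the widest 26145 peaks of each list this value was 4.97 points (p = 0.00309, exact permutation test), so its direction was not the same in the lists as deposited and in these cut lists, which kept peaks by width and held 14 clusters. It passed the test without MOLT4 ACBI-1 24 h replicate 2 (-2.54 points, p = 0.0448), without MOLT4 DMSO 3 h replicate 1 (-2.54 points, p = 0.0247) and without the 6 clusters in antigen receptor loci and beside centromeres (-2.47 points, p = 0.0355), all from exact permutation tests.

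Nor was a difference between edge and centre shown over all clusters. The change at edge sites minus that at centre sites was -2.00 points (SE 1.19, exact permutation p = 0.122), in 14 of 16 pairs. It was -0.44 points in MOLT4 (p = 0.833) and -3.55 points in DND41 (p = 0.0556, the smallest possible), and -2.92 points at 24 h (p = 0.0556, the smallest possible) and -1.07 points at 3 h (p = 0.611), all from exact permutation tests. Set against DND41, MOLT4 differed by 3.11 points, which did not pass (exact permutation p = 0.177). The times differed by -1.85 points, 24 h minus 3 h (exact permutation p = 0.492), and both had an adjusted p of 1 over 46 such interactions. Without replicate 1 or replicate 2 of DND41 DMSO at 24 h the value over all clusters was 0.75 and 0.13 points, so its sign rested on those libraries, while without MOLT4 ACBI-1 3 h replicate 1 it was -2.60 points and passed the test (exact permutation p = 0.0139). Without the 4 antigen receptor clusters and the 2 next to centromeres it was 0.11 points (exact permutation p = 0.952).

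The choice of sites used all libraries of both arms, so shares were also taken over sites present in both DMSO libraries of the other time point in the same line. Of such members 71.8 ± 4.51% had a peak with ACBI-1 and 93.4 ± 2.73% with DMSO (SD, n = 8), a difference of -21.6 points (SE 1.47, exact permutation p = 0.00154). Edge minus centre was -1.45 points on these sites (exact permutation p = 0.358). The choice rested on DMSO libraries, so sites open only with ACBI-1 could not enter. It thus favours a fall with ACBI-1, and the -21.6 points add no independent support.

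Counted inwards, sites at every depth in a cluster were present less often with ACBI-1, values given as a description. The outermost sites, 112 in all, had a peak in 60.9 ± 3.84% of cases with ACBI-1 and in 80.1 ± 3.87% with DMSO. The next sites inwards had one in 56.8 ± 5.36% with ACBI-1 and in 78.7 ± 5.08% with DMSO, and sites in place 3 in 58.1 ± 2.59% with ACBI-1 and in 78.5 ± 2.92% with DMSO. The 203 sites further inside had one in 56.2 ± 2.98% with ACBI-1 and in 75.8 ± 5.03% with DMSO (SD, n = 8 for each). The 4 differences lay between -21.9 and -19.2 points.

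Clusters spanned less of their length and lay in more pieces with ACBI-1. The stretch between the outermost occupied sites covered 80.7 ± 3.45% of the cluster length in ACBI-1 libraries and 93.6 ± 1.74% in DMSO libraries. The longest gap between occupied sites averaged 16.1 ± 0.55 kb in ACBI-1 libraries and 13.7 ± 1.04 kb in DMSO libraries. A cluster without any occupied site was counted with no span and its full length as the gap. A cluster with a single occupied site was counted with no gap. With the same 12500-base rule applied to each library alone, a cluster fell into 1.79 ± 0.14 pieces with ACBI-1 and into 1.48 ± 0.10 with DMSO. The span differed by -12.8 points, and by -3.30 with regions in at least 8 libraries, -7.20 in chains of at least 12 and -5.03 with lists of equal length, and it was 0.272 in the 1 cluster left with a gap of at most 5 kb (exact permutation p = 1). Span, gap and pieces each had p = 0.00154 with the lists as deposited in the exact permutation test and adjusted p = 0.00222 over 23 measures, with 16 of 16 pairs in 1 direction (SD, n = 8). With lists of equal length the longest gap, as a percentage of cluster length, was 2.46 points lower in ACBI-1 libraries (difference -2.46, exact permutation p = 0.0293), opposite to the difference of 4.42 points with the lists as deposited.

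Few clusters met the rule for density in a single ACBI-1 library. A mean of 5.13 ± 2.42 of the 56 clusters still held 8 or more chained sites in an ACBI-1 library, against 19.9 ± 5.67 in a DMSO library. Every site was present in 1.38 ± 1.06 clusters per ACBI-1 library and in 9.88 ± 3.98 per DMSO library. Fewer than 50% of the sites were present in 16.3 ± 3.11 clusters per ACBI-1 library and in 3 ± 1.41 per DMSO library (SD, n = 8; exact permutation p = 0.00154 for each). These measures of pieces and of complete clusters were chosen after the data were seen.

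**Figure D2:**
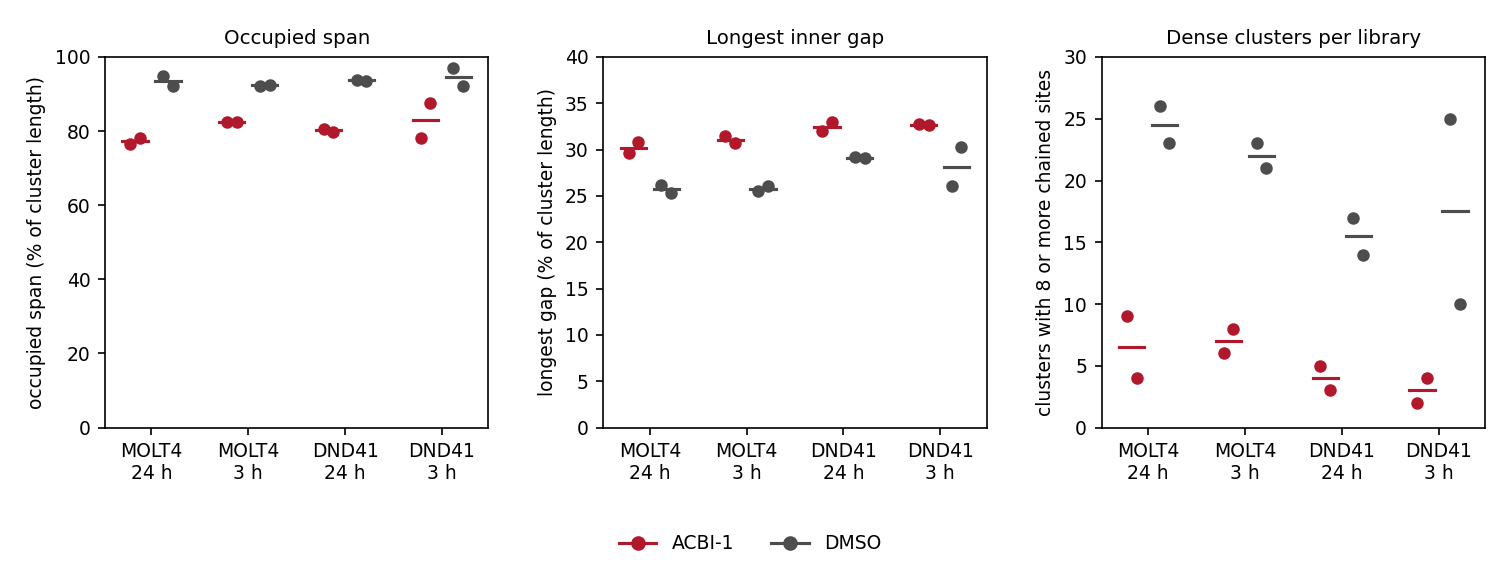
Occupied span and longest inner gap, each as a percentage of cluster length averaged over the 56 clusters, and the number of clusters with 8 or more chained sites, for each library by line and time (ACBI-1 red, DMSO grey, bars are means of 2). Span is lower, the gap longer and dense clusters fewer in ACBI-1 libraries; the DND41 DMSO libraries at 3 h lie far apart, with 25 and 10 dense clusters.

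Sites that kept a peak in all 16 libraries had narrower peaks with ACBI-1. Over the 155 such members the median width averaged 561 ± 69.6 bp in ACBI-1 libraries and 628 ± 102 bp in DMSO libraries, a difference of -66.6 bp (exact permutation p = 0.0185, adjusted p = 0.0224 over 23 measures, 14 of 16 pairs). It was 630 bp with ACBI-1 and 689 bp with DMSO at the 71 edge sites among them, and 510 bp with ACBI-1 and 580 bp with DMSO at the 84 centre sites. The same comparison over all regions with a peak in 16 libraries gave 665 bp with ACBI-1 and 729 bp with DMSO, a difference of -64.0 bp. The call for members ended without MOLT4 DMSO 24 h replicate 1 (-46.2 bp, p = 0.0525), MOLT4 DMSO 3 h replicate 2 (-44.1 bp, p = 0.0648), DND41 ACBI-1 3 h replicate 1 (-59.1 bp, p = 0.0725) or DND41 DMSO 3 h replicate 1 (-42.8 bp, p = 0.123), all from exact permutation tests.

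Among single clusters, 32 of 56 had fewer sites with a peak under ACBI-1 at an adjusted p under 0.05, and none had more (exact permutation test, Benjamini-Hochberg over the 2738 chains of 3 or more). At an unadjusted p under 0.05, 45 clusters had fewer sites and none had more. Over all those chains 29.3% were called with fewer sites and 0.0365% with more at the adjusted p, and 43.8% and 0.0365% at the unadjusted p. Longer chains allow more distinct counts, so the share among clusters and that among all chains are not like for like. The median change was -1.81 sites per cluster, or -18.5% of its sites, against -20.8% over all chains of 3 or more. With lists of equal length, which cannot show a general loss of peaks, 0 of 14 clusters were called. When regions and clusters were rebuilt without 1 library, the count was 20 without MOLT4 DMSO 24 h replicate 1, 18 without MOLT4 DMSO 3 h replicate 2 and 16 without DND41 DMSO 3 h replicate 1.

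A site was called lost in a line at a time when both DMSO libraries had a peak there and neither ACBI-1 library did. In MOLT4 at 24 h, 40 of 181 edge sites (22.1%) and 45 of 216 centre sites (20.8%) were lost, against 25.9% of all regions. In MOLT4 at 3 h, 23 of 176 edge sites (13.1%) and 33 of 208 centre sites (15.9%) were lost, against 16.7% of all regions. In DND41 at 24 h, 38 of 172 edge sites (22.1%) and 43 of 202 centre sites (21.3%) were lost, against 24.2% of all regions. In DND41 at 3 h, 23 of 167 edge sites (13.8%) and 26 of 202 centre sites (12.9%) were lost, against 16.2% of all regions. The shares at edge and centre lay near each other and somewhat under those over all regions in every line and time. The reverse pattern, a gained site with a peak in both ACBI-1 and neither DMSO library, was seen in MOLT4 at 5 members after 24 h and 2 after 3 h, and in DND41 at 6 members after 24 h and none after 3 h. Over all regions with a peak in both ACBI-1 libraries, 3.16%, 1.12%, 3.18% and 0.717% were gained in those 4 comparisons.

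Clusters were then sorted by where their lost sites lay. In MOLT4 at 24 h, 11 clusters lost edge sites only, 13 centre sites only, 17 both and 15 none. In MOLT4 at 3 h, 12 lost edge only, 16 centre only, 9 both and 19 none. The DND41 counts in that order were 13, 16, 15 and 12 after 24 h, and 8, 14, 9 and 25 after 3 h. Over all 1030 chains of 4 or more, the shares that lost edge only, centre only, both and none were 16.9%, 25.3%, 15% and 42.7% in MOLT4 after 24 h and 15.8%, 22.4%, 5.63% and 56.1% after 3 h, and in DND41 16.9%, 25.4%, 13.6% and 44.1% after 24 h and 13.3%, 20.1%, 6.41% and 60.2% after 3 h. Most of those chains hold fewer sites than the clusters and so have fewer to lose, which keeps these shares from being like for like. Each pair of ACBI-1 site counts lay below both DMSO counts in 37 clusters in MOLT4 after 24 h (41.7% of all chains of 3 or more) and 35 after 3 h (34.7%), and for DND41 in 35 after 24 h (40.9%) and 26 after 3 h (30.9%).

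**Figure D3:**
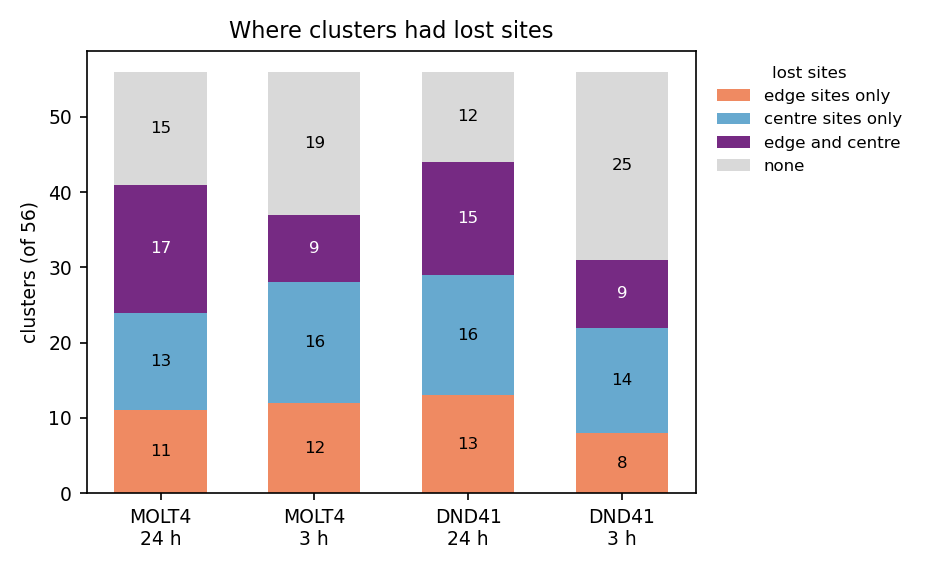
Number of the 56 clusters that lost edge sites only, centre sites only, both or none in each line and time, as stacked bars. Clusters with no lost site numbered 15 and 19 in MOLT4 at 24 h and 3 h, and 12 and 25 in DND41 at 24 h and 3 h.

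Over the 4 comparisons together, 7 clusters lost edge sites only, 12 centre sites only, 35 both, and 2 none. Edge losses recurred in all 4 comparisons in 6 clusters (around FASLG, IGF2R, FNBP1, FAM53B and CHST11 and in the IGH locus), and centre losses in 5 (around ITGA4, IGF2R, ZMIZ1, PTPN6 and BCOR). The 7 with edge losses only were those around HDAC4, CCND3, CDK4, LDLRAD4 and JUNB, the histone tract at 27.8 Mb on chromosome 6, and the one beside the centromere of chromosome 15. Over all chains of 4 or more, 16.1% lost edge sites only, 27.9% centre sites only, 41.3% both and 14.8% none, and edge losses recurred in all 4 comparisons in 2.33% and centre losses in 4.37%. The lists of clusters were read off after the values were seen.

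Most lost sites were lost once. Of the 539 sites, 357 were lost in no comparison, 116 in 1, 45 in 2, 19 in 3 and 2 in all 4. As shares of members, 66.2% were never lost, 21.5% were lost in 1 comparison, 8.35% in 2, 3.53% in 3 and 0.371% in 4. Over all 45121 regions these shares were 63.7%, 21.7%, 11.6%, 2.54% and 0.463% in the same order. The 21 sites lost 3 or 4 times comprised 14 edge and 7 centre sites. Centre sites were more numerous among the others. The 45 sites lost in 2 comparisons comprised 16 edge and 29 centre sites, and the 116 lost in 1 comprised 49 edge and 67 centre sites. The 357 never lost comprised 163 edge and 194 centre sites. Loss could be scored only where both DMSO libraries had a peak, which held for between 369 and 397 of the 539 sites per comparison. The 357 thus include sites that could not be scored, such as the 3 without a peak in any DMSO library. The 49 sites with peaks only in MOLT4 and the 36 only in DND41 could be lost at most 2 times. The shares over all regions were likewise not limited to regions that could be scored. Whether recurrence of loss differed between edge and centre was not tested. At 24 h, among the 303 sites present in all 4 DMSO libraries, 56 were lost in MOLT4 and 50 in DND41, and 28 in both, which is 50% of the MOLT4 list and 56% of the DND41 list, against 59.9% of the MOLT4 list and 60.6% of the DND41 list over all regions. Of sites that could be scored at both times, 24 were lost at both in MOLT4, 35.8% of those lost at 24 h and 64.9% of those lost at 3 h, against 35.7% and 77.3% in that order over all regions. In DND41, 18 were lost at both, 26.5% of those lost at 24 h and 56.3% of those lost at 3 h, against 36.2% and 75.1% over all regions. These comparisons use separate DMSO libraries.

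The 2 sites lost in every comparison had a peak in 0 of 8 ACBI-1 and 8 of 8 DMSO libraries. One, at chr10:126307399-126308123, was the second of 8 sites, an edge site, in the cluster around FAM53B, a gene whose product helps beta-catenin into the nucleus. The other, at chr12:7068177-7068644, was the eighth of 10 sites, a centre site, in the cluster around PTPN6. Next came sites with no ACBI-1 peak and 7 DMSO peaks. The first site of the FASLG cluster (chr1:172596827-172597245), the eighth of TCF7 (chr5:133460155-133460553) and the sixth of CHST11 (chr12:104875993-104876272) were of this kind.

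No cluster passed the test of unequal change at edge and centre. Of 56, 0 were called at an adjusted p under 0.05 (smallest adjusted p = 0.108, exact permutation test with Benjamini-Hochberg adjustment), as were 0% of the 1030 chains of 4 or more. At an unadjusted p under 0.05 there were 11, namely 7 with the edge and 4 with the centre more reduced, while 18.4% of the 1030 chains passed that mark and 8.93% did so with a more reduced edge. The smallest possible p, 0.00154, stays above 0.05 after adjustment over 1030 chains unless many chains reach it. The 0 calls therefore do not show that edge and centre changed alike. The patterns below are values of single clusters, named by the rule given with the processing. None is shown to differ between edge and centre.

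**Figure D4:**
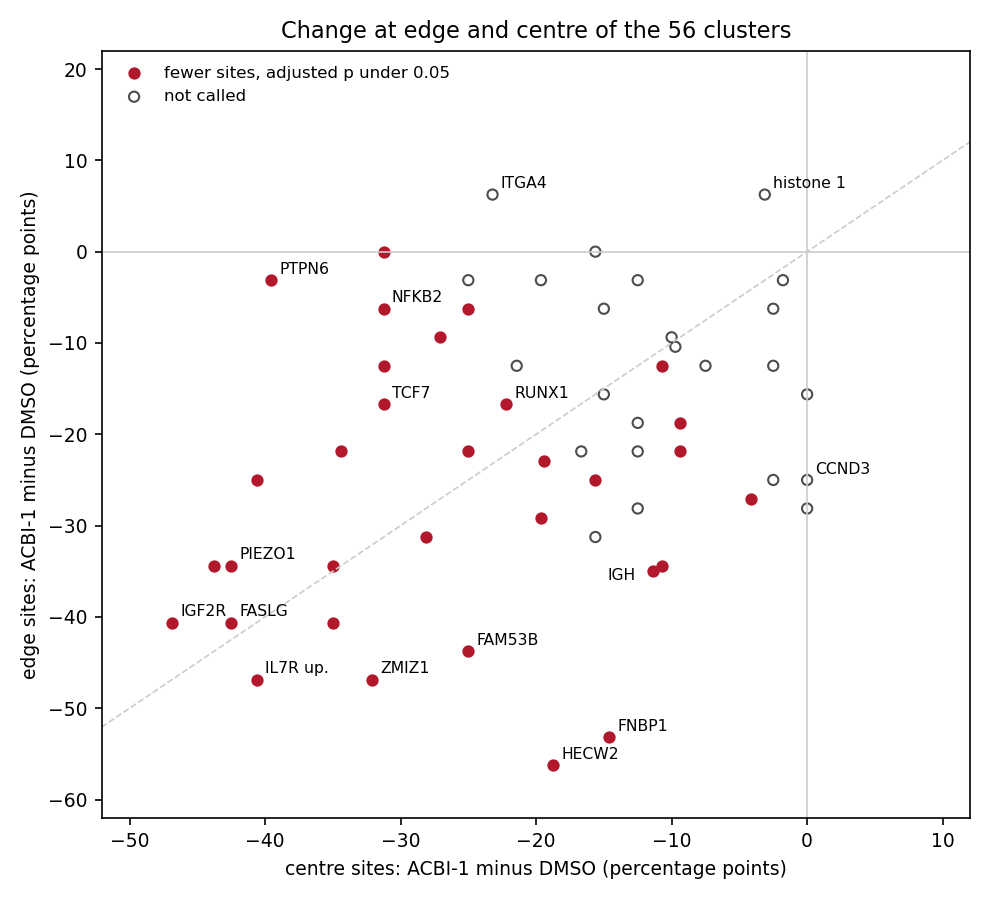
Change in the percentage of edge sites (y axis) against that of centre sites (x axis) with a peak, ACBI-1 minus DMSO in percentage points, for the 56 clusters; filled points had fewer sites at an adjusted p under 0.05 and the dashed line marks equal change. Points below the line, such as HECW2 and FNBP1, lost more at the edge, and those above it, such as PTPN6 and NFKB2, more in the centre; FAM53B, IGF2R and TCF7 are among the labelled clusters for orientation.

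The largest cluster, with 21 sites over 153 kb (chr14:106538988-106692030), lay among the variable segments of IGH, the immunoglobulin heavy chain locus that B cells rearrange. It had 14 and 13 sites with ACBI-1 against 16 and 18 with DMSO in MOLT4 at 24 h, and 11 and 9 with ACBI-1 against 13 and 15 with DMSO in MOLT4 at 3 h. It had 11 and 11 with ACBI-1 against 18 and 15 with DMSO in DND41 at 24 h, and 6 and 11 with ACBI-1 against 16 and 13 with DMSO in DND41 at 3 h. ACBI-1 and DMSO counts did not overlap in any line at any time. The mean change of -4.75 was the largest of all clusters in number of sites (adjusted p = 0.0271, exact permutation test over 2738 chains), in the cluster with most sites. As a share, 51.2% of its sites had a peak with ACBI-1 and 73.8% with DMSO. Some smaller clusters fell by more of their sites, such as IGF2R with 2.50 of 8 sites with ACBI-1 and 6 with DMSO. Edge sites had a peak in 37.5 ± 13.9% of cases with ACBI-1 and in 72.5 ± 12.8% with DMSO, and centre sites in 63.6 ± 11.9% with ACBI-1 and in 75 ± 11.7% with DMSO (SD, n = 8; edge minus centre unadjusted p = 0.00463, adjusted p = 0.108, exact permutation test). Edge sites were lost 11 times over the 4 comparisons, at 7 different sites, and a centre site once. Variable segments are near copies of each other, so the placement of reads among these sites is uncertain.

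The clusters of 12 or more sites as a group showed the edge more reduced than the centre, by -7.19 points (exact permutation p = 0.017), but this rested on IGH, since the value without it was -2.82 points (p = 0.461, exact permutation test). Of the others of that size, the 15 sites around PER1, a repressor in the circadian clock, and AURKB, a mitotic kinase (chr17:8021996-8126862), numbered 11.5 ± 1.31 with ACBI-1 and 13 ± 1.77 with DMSO (exact permutation test, adjusted p = 0.123). The 15 sites at SEPTIN9, which encodes a cytoskeletal GTPase (chr17:75368642-75462271), numbered 9.25 ± 0.89 with ACBI-1 and 12.4 ± 1.06 with DMSO (exact permutation test, adjusted p = 0.0271). The 13 sites at DGKZ, whose product removes diacylglycerol and thereby damps T-cell receptor signalling (chr11:46352091-46414546), numbered 5.25 ± 0.89 with ACBI-1 and 8.38 ± 1.19 with DMSO (adjusted p = 0.0273; exact permutation tests, SD, n = 8). Site counts thus fell at SEPTIN9 and DGKZ. Site 14 of SEPTIN9, an edge site, was lost 3 times (2 ACBI-1 and 8 DMSO libraries with a peak).

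RUNX1, a transcription factor of blood and T-cell development that is altered in leukaemia, had 15 sites (chr21:36335067-36423981). In MOLT4 they numbered 7 and 9 with ACBI-1 against 14 and 13 with DMSO at 24 h, and 12 and 12 with ACBI-1 against 15 and 15 with DMSO at 3 h. In DND41 they numbered 4 and 4 with ACBI-1 against 5 and 5 with DMSO at 24 h, and 2 and 5 with ACBI-1 against 8 and 4 with DMSO at 3 h. The cluster was thus nearly complete in MOLT4 DMSO libraries and sparse in DND41, and the DND41 groups overlapped at 3 h. Over all libraries the change was -3 sites (adjusted p = 0.0382, exact permutation test), and the ninth site, in the centre, was lost at both times in MOLT4. The call ended without DND41 ACBI-1 3 h replicate 1 (-2.63 sites, adjusted p = 0.0643) or DND41 DMSO 3 h replicate 1 (-2.50 sites, adjusted p = 0.0653, exact permutation tests).

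After IGH, the largest fall in number of sites was found at ZMIZ1. This coactivator, known to bind NOTCH1 in T-cell leukaemia, lay in a cluster of 11 sites (chr10:80853443-80907888) with 2 and 3 sites with ACBI-1 against 7 and 6 with DMSO in MOLT4 at 24 h, and 4 and 5 with ACBI-1 against 8 and 8 with DMSO in MOLT4 at 3 h. In DND41 it had 2 and 1 with ACBI-1 against 4 and 6 with DMSO at 24 h, and 1 and 4 with ACBI-1 against 8 and 8 with DMSO at 3 h. No group overlapped, and the mean change was -4.12 sites (adjusted p = 0.0271, exact permutation test). Site 10 (chr10:80906047-80906721), at the right edge, had a peak in 1 ACBI-1 library and in 8 DMSO libraries and was lost in 3 of 4 comparisons, and 5 different centre sites were lost at least once.

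FASLG, the death ligand of the FAS receptor, lay in a cluster of 9 sites (chr1:172596827-172648829). In MOLT4 it had 1 and 1 sites with ACBI-1 against 6 and 6 with DMSO at 24 h, and 3 and 3 with ACBI-1 against 6 and 5 with DMSO at 3 h. In DND41 it had 3 and 2 with ACBI-1 against 9 and 8 with DMSO at 24 h, and 7 and 8 with ACBI-1 against 9 and 9 with DMSO at 3 h. The DND41 cluster was thus nearly complete at 3 h and sparse at 24 h, when 4 of 5 lost sites were centre sites, whereas MOLT4 already had 3 sites at 3 h. The mean change was -3.75 sites (adjusted p = 0.0271, exact permutation test), and site 4, in the centre (chr1:172616005-172616649), had a peak in 1 ACBI-1 and 8 DMSO libraries. The difference between the times in DND41 was not tested.

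A similar order was seen upstream of IL7R, the interleukin-7 receptor that supports T-cell precursors, where 8 sites reached back into SPEF2 (chr5:35777635-35831216). In MOLT4 0 and 0 sites had a peak with ACBI-1 against 3 and 4 with DMSO at 24 h, and 1 and 1 with ACBI-1 against 3 and 4 with DMSO at 3 h. In DND41 3 and 1 had one with ACBI-1 against 8 and 7 with DMSO at 24 h, and 5 and 5 with ACBI-1 against 7 and 8 with DMSO at 3 h. Every ACBI-1 count lay below the DMSO counts of its line and time, with a mean change of -3.50 sites (adjusted p = 0.0271, exact permutation test). The seventh site (chr5:35822369-35823069), an edge site, had a peak in 2 ACBI-1 and 8 DMSO libraries. In DND41 at 24 h, 3 edge and 2 centre sites were lost, and at 3 h none was.

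The 9 sites around PIEZO1, a mechanically gated channel, and CDT1, a licensing factor of DNA replication (chr16:88837290-88879038), numbered 4.38 ± 0.74 with ACBI-1 and 7.88 ± 0.99 with DMSO, a change of -3.50 (exact permutation test, adjusted p = 0.0271). At CHST11, which encodes a chondroitin sulfotransferase (chr12:104850264-104892583), 4.75 ± 0.71 of 9 sites had a peak with ACBI-1 and 8.13 ± 0.35 with DMSO, a change of -3.38 (adjusted p = 0.0271; exact permutation tests, SD, n = 8). Site counts fell at both, with 5 losses of edge and 5 of centre sites each over the 4 comparisons. In the CHST11 cluster 2 ACBI-1 libraries of MOLT4 had 4 sites each at 24 h, while both DMSO libraries had 8.

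Among clusters named for the edge, HECW2, a ubiquitin ligase gene, had the largest edge difference. Its 4 edge sites (cluster chr2:197098422-197140898, 8 sites) had a peak in 31.3 ± 25.9% of cases with ACBI-1 and in 87.5 ± 13.4% with DMSO, and its 4 centre sites in 40.6 ± 22.9% with ACBI-1 and in 59.4 ± 26.5% with DMSO. In MOLT4 the first and second sites were lost at 24 h and at 3 h, and in DND41 the second and eighth at 24 h, while at 3 h a centre site was lost there. At FNBP1, whose product shapes membranes with actin, and USP20, a deubiquitinase (chr9:132616799-132657291, 10 sites), edge sites had a peak in 43.8 ± 22.2% with ACBI-1 and in 96.9 ± 8.84% with DMSO, and centre sites in 58.3 ± 21.8% with ACBI-1 and in 72.9 ± 21.7% with DMSO. The first site was lost in MOLT4 at both times and in DND41 at 24 h, and sites 9 and 10 in DND41 at 3 h, so which end was lost differed. Unadjusted exact permutation p for edge minus centre was 0.0231 at HECW2 and 0.0185 at FNBP1, with adjusted p = 0.187 and 0.183. Site counts changed by -3 in each (adjusted p = 0.0273 at HECW2 and 0.0271 at FNBP1, exact permutation test).

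The other 3 clusters named for the edge had smaller edge differences. At HDAC4, a histone deacetylase (chr2:240210854-240262297), edge sites stood at 50 ± 26.7% with ACBI-1 and 78.1 ± 20.9% with DMSO, while centre sites stood at 71.9 ± 24.8% with ACBI-1 and 71.9 ± 24.8% with DMSO. At CCND3, cyclin D3, which drives division of early T cells (chr6:41977748-42018698), edge sites stood at 75 ± 18.9% with ACBI-1 and 100% in all 8 DMSO libraries, while centre sites stood at 75 ± 14.1% with ACBI-1 and 75 ± 17.7% with DMSO. The cluster at chr4:40290979-40352157 had edge sites at 34.4 ± 18.6% with ACBI-1 and 68.8 ± 25.9% with DMSO. Its 11 sites were more complete in MOLT4, with 7 sites with ACBI-1 and 10.3 with DMSO, against 5.5 with ACBI-1 and 6.50 with DMSO in DND41. Site counts did not pass the test at HDAC4 (adjusted p = 0.0589) or CCND3 (adjusted p = 0.147), and did at the chromosome 4 cluster (adjusted p = 0.0382, all exact permutation tests). HDAC4 passed without MOLT4 ACBI-1 24 h replicate 2 or MOLT4 DMSO 3 h replicate 2 (exact permutation tests, adjusted p = 0.0401 and 0.0372). The chromosome 4 cluster did not pass when any 1 of 7 libraries was left out, with adjusted p between 0.0539 and 0.0825 in exact permutation tests.

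Centre sites were lost most often at PTPN6, the phosphatase SHP-1 that restrains lymphocyte signalling (chr12:7013664-7080336, 10 sites). Its edge sites had a peak in 84.4 ± 12.9% of cases with ACBI-1 and in 87.5 ± 13.4% with DMSO, and its centre sites in 54.2 ± 17.3% with ACBI-1 and in 93.8 ± 8.63% with DMSO (SD, n = 8; edge minus centre unadjusted exact permutation p = 0.00463, adjusted p = 0.108). In MOLT4 it had 7 and 6 sites with ACBI-1 against 10 and 10 with DMSO at 24 h, and 5 and 5 with ACBI-1 against 8 and 8 with DMSO at 3 h. In DND41 it had 8 and 8 with ACBI-1 against 9 and 10 with DMSO at 24 h, and 6 and 8 with ACBI-1 against 10 and 8 with DMSO at 3 h, where the groups met. Over the 4 comparisons there were 9 centre losses and no edge loss. The seventh site (chr12:7062759-7063391, 2 ACBI-1 and 8 DMSO libraries) and the eighth accounted for 7 of the 9 losses.

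At ITGA4, the alpha-4 integrin chain used in homing of T cells (chr2:182258219-182323068, 11 sites), edge sites stood at 84.4 ± 12.9% with ACBI-1 and 78.1 ± 24.8% with DMSO, and centre sites at 60.7 ± 12.7% with ACBI-1 and 83.9 ± 9.16% with DMSO. Site 3 (chr2:182263810-182264258) had a peak in 2 ACBI-1 and 8 DMSO libraries. At NFKB2, a subunit of the noncanonical NF-kappaB pathway (chr10:104153743-104192735), edge sites stood at 93.8 ± 11.6% with ACBI-1 and 100% in all 8 DMSO libraries, and centre sites at 34.4 ± 18.6% with ACBI-1 and 65.6 ± 26.5% with DMSO. Site 4 was lost in MOLT4 at both times and site 6 in DND41 at 24 h. Site counts passed the test at NFKB2 (-1.50, adjusted p = 0.0273) and not at ITGA4 (-1.38, adjusted p = 0.0718, exact permutation tests), which passed without MOLT4 DMSO 24 h replicate 2 or DND41 DMSO 24 h replicate 1 (adjusted p = 0.0392 and 0.0381).

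The cluster at chr13:30945766-30996895 had all 4 centre sites in every DMSO library and 68.8 ± 17.7% of them with ACBI-1, while its edge sites stood at 87.5 ± 13.4% with ACBI-1 and 87.5 ± 13.4% with DMSO. Its centre losses were in DND41, at 24 h and 3 h, and none was found in MOLT4. At IRF1, an interferon-induced transcription factor (chr5:131791833-131837286), centre sites stood at 62.5 ± 13.4% with ACBI-1 and 87.5 ± 18.9% with DMSO, and edge sites at 71.9 ± 16% with ACBI-1 and 75 ± 18.9% with DMSO. Site counts passed the test at the chromosome 13 cluster (-1.25, adjusted p = 0.0273) and not at IRF1 (-1.13, adjusted p = 0.0718, exact permutation tests), which passed without DND41 ACBI-1 24 h replicate 2 or DND41 DMSO 3 h replicate 2 (adjusted p = 0.0392 and 0.0349).

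TCF7 encodes TCF1, a founding factor of the T lineage, and its 12 sites (chr5:133413697-133485967) numbered 6.88 ± 1.55 with ACBI-1 and 9.75 ± 0.71 with DMSO (-2.88, adjusted p = 0.0273, exact permutation test). Centre sites 7, 8 and 9 were lost together in MOLT4 at 24 h, when ACBI-1 libraries had 6 and 7 sites against 10 and 10 with DMSO. At 3 h MOLT4 lost site 8 alone, with 8 and 10 sites with ACBI-1 against 11 and 10 with DMSO. FYB1, an adapter in T-cell receptor signalling (chr5:39164044-39218491), had 11 sites of which 5.88 ± 1.13 had a peak with ACBI-1 and 7.88 ± 1.81 with DMSO (exact permutation test, adjusted p = 0.0524, and 0.0366 or 0.0445 without DND41 ACBI-1 24 h replicate 1 or DND41 DMSO 3 h replicate 2). Its edge sites were present in all DMSO libraries and in 87.5 ± 18.9% of cases with ACBI-1, and its centre sites in 33.9 ± 18.6% with ACBI-1 and 55.4 ± 25.8% with DMSO (SD, n = 8).

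The smallest changes were found in the histone tracts and beside a centromere. The 8 sites of the tract of replication-dependent histone genes at chr6:26020536-26066546 numbered 7.13 ± 0.64 with ACBI-1 and 7 ± 0.53 with DMSO, a difference of 0.125 (exact permutation test, adjusted p = 1). No site was lost in either line at either time, and 1 edge site was gained in DND41 at 24 h. The 9 sites of the other histone tract, at chr6:27759946-27806766, numbered 6.75 ± 1.16 with ACBI-1 and 7.13 ± 0.99 with DMSO (exact permutation test, adjusted p = 0.667), with 1 lost edge site. The 11 sites at chr16:46386010-46428359, next to the centromere, where repeats make the placement of reads uncertain, numbered 8.88 ± 1.13 with ACBI-1 and 9.13 ± 0.99 with DMSO (adjusted p = 0.931; exact permutation tests, SD, n = 8). The other cluster without a lost site lay around FXYD2, with 4.38 ± 1.60 of 9 sites with ACBI-1 and 5 ± 1.41 with DMSO. Of its 4 edge sites, 2 had a peak in both DMSO libraries in MOLT4 at 24 h and 1 at 3 h. In DND41 0 did at either time, so edge loss could not be scored there.

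**Figure D5:**
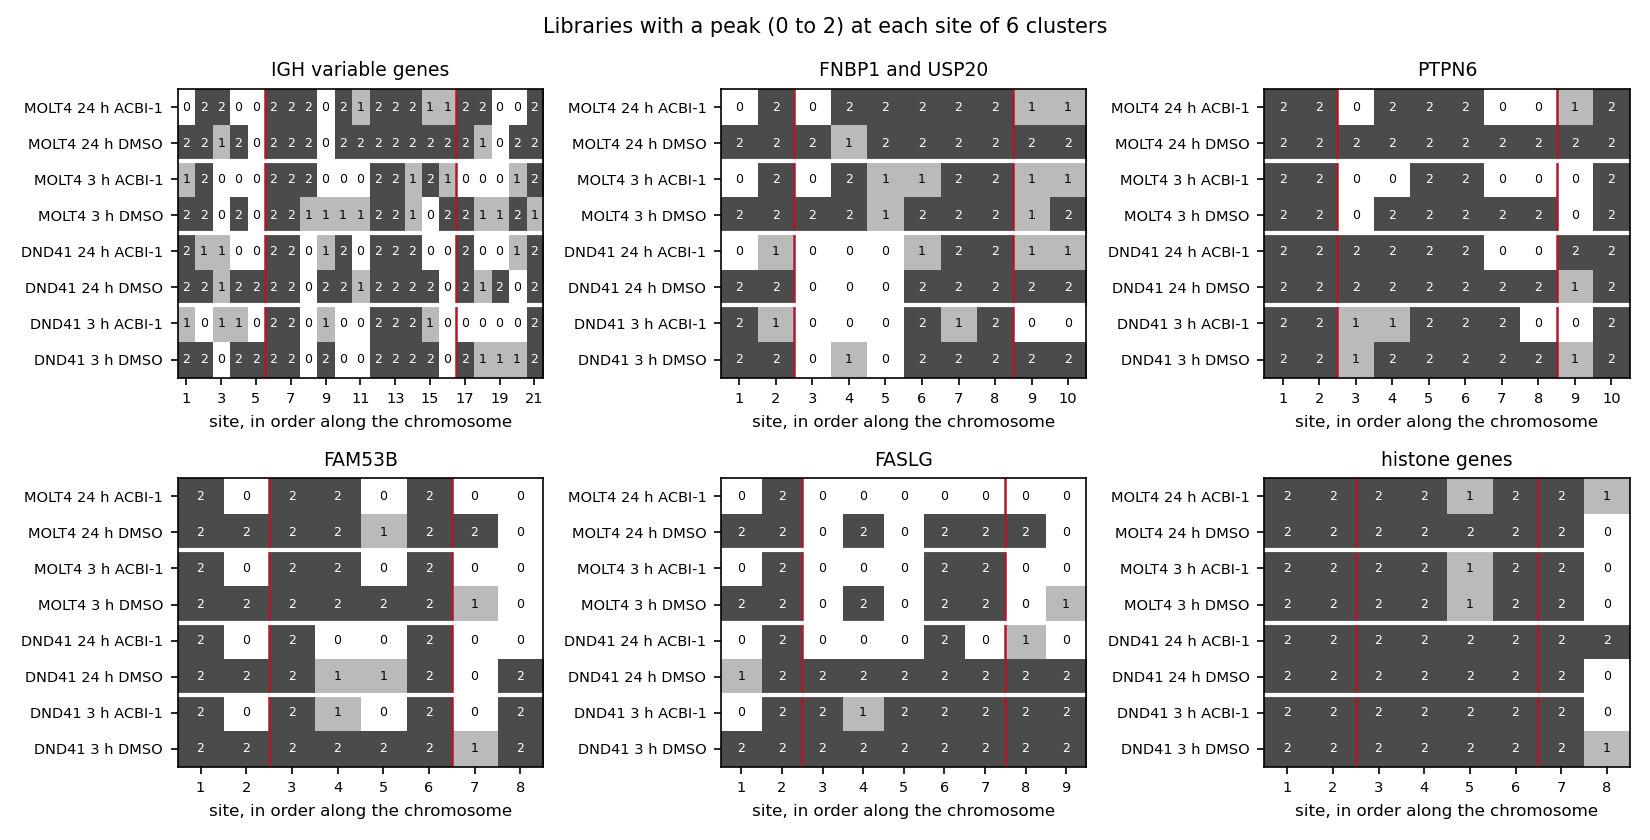
Number of libraries with a peak (0 to 2, darker is more) at each site of 6 clusters, in order along the chromosome, with ACBI-1 above DMSO for each line and time; red lines separate edge from centre sites. In PTPN6 centre site 8 has no ACBI-1 peak in any line at any time and centre site 7 has none except in DND41 at 3 h, in FAM53B site 2 of the edge, in IGH and FNBP1 several edge sites, in FASLG sites at both places, and in the histone tract no site is lost.

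The remaining 31 clusters were not named by the rule and included several T-cell loci. IGF2R, a receptor that carries ligands to lysosomes, had 2.50 ± 0.53 of 8 sites with ACBI-1 and 6 ± 0.76 with DMSO, and lost edge and centre sites in every comparison. BCOR, a corepressor, had 3.75 ± 1.75 of 9 sites with ACBI-1 and 6.88 ± 1.36 with DMSO. PRKCH, a protein kinase C, had 3.38 ± 1.30 of 8 with ACBI-1 and 6.50 ± 1.51 with DMSO, and DTX1, a NOTCH pathway regulator, 3.25 ± 1.58 of 8 with ACBI-1 and 5.88 ± 2.36 with DMSO. Each of these 4 fell (adjusted p = 0.0271, 0.0271, 0.0273 and 0.0382, exact permutation tests), and they were chosen after their values were seen. LEF1, a partner of TCF1, did not pass, with 4.50 ± 1.07 of 8 with ACBI-1 and 5.75 ± 1.49 with DMSO (exact permutation test, adjusted p = 0.106).

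In DMSO libraries 32 clusters had more sites in MOLT4, 20 more in DND41 and 4 as many in both. Sites could enter through 1 line alone, and 49 members had peaks in MOLT4 only and 36 in DND41 only. The share of all regions with a peak averaged 75.2% in MOLT4 DMSO libraries and 71.4% in DND41 DMSO libraries. The same count over all chains was not made, and the contrasts between lines are a description without a test. By number of sites, the widest contrast was at RUNX1, whose 15 sites averaged 14.3 in MOLT4 DMSO libraries and 5.5 in DND41 DMSO libraries. As a percentage of the sites of a cluster, MOLT4 minus DND41 was 58.3 at RUNX1 and wider, at -68.2, in the T-cell receptor gamma cluster. The 2 next widest by number of sites ran the other way. The T-cell receptor gamma cluster (chr7:38370464-38408132, 11 sites) averaged 3 sites in MOLT4 DMSO libraries and 10.5 in DND41 DMSO libraries, and the one at RGS1, a regulator of G-protein signalling (chr1:192500187-192550261, 10 sites), 3.75 in MOLT4 and 9.25 in DND41. With ACBI-1 the RGS1 cluster averaged 1.75 sites in MOLT4 and 7.25 in DND41, a change of -2.00 in each. Site counts were lower with ACBI-1 in both lines in 53 of the 56 clusters, as means over 4 libraries per arm, a description with no test. The share of all regions with a peak also differed, by -19.8 points in MOLT4 and -19.0 points in DND41. How many of all chains were lower in both lines was not counted, so the 53 are not shown to be particular to dense clusters.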

How the data were processed

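Peak positions are the only unit used. Per the submitters' processing notes, which name tools without their roles, the tools were MACS2 2.1.1.2016030, SAMtools, Picard and Bowtie2, on build hg19; the authors deposited 1 peak list per library with 4 columns (chromosome, start, end and name), and replicates were not pooled. Thresholds and read depth are not given in the sources used here. Merging, chaining, edge and centre sites, peak presence and widths were computed with Python 3.11.15, numpy 2.4.6 and pandas 2.3.3. The members, the measures and the cluster rule were chosen with earlier results of these data known.

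ACBI-1 and DMSO were compared by an exact two-sided permutation test that exchanged treatment labels within each line and time (1296 arrangements, smallest p = 0.00154). Benjamini-Hochberg adjustment ran over 2738 chains of 3 or more for site counts, over 1030 chains of 4 or more for edge minus centre, over 23 measures and over 46 interactions. SE is that of the mean difference over the 4 line and time groups. Sites present in both DMSO libraries of the other time point in the same line, called DMSO-open sites, were also scored alone. The procedure was tested on simulated data with losses much larger than the mean changes seen here. That test does not show how often changes of the observed size would be called.

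Named clusters are the 5 with most sites, the 5 with the largest fall, the 5 with the edge and the 5 with the centre most reduced relative to the other, the 2 with most lost edge and the 2 with most lost centre sites in each line and time, and the 3 with the smallest fall. The largest and smallest falls were ranked by number of sites. Ties went to the cluster with more sites, then to the earlier position. Alternatives changed the library minimum, gap, chain size, merging, width, list length, edge definition, test and libraries. The coverage of each site is unknown, so no interval for counting error is given.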

Additional observations from a re-analysis of the deposited data

Results flagged for a closer look

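The 3 comparisons below of 24 h with 3 h differed at an unadjusted p under 0.05. At DMSO-open sites, those present in both DMSO libraries of the other time point in the same line, the ACBI-1 minus DMSO difference was larger at 24 h than at 3 h by -8.89 points for all members (exact permutation p = 0.0201), by -8.92 points for edge sites (p = 0.0324) and by -8.88 points for centre sites (p = 0.0278). All 3 had an adjusted p of 0.497 over 46 interactions. With ACBI-1, 68.1 ± 0.67% of these sites had a peak at 24 h and 75.6 ± 3.07% at 3 h, against 94.1 ± 1.63% at 24 h and 92.7 ± 3.67% at 3 h with DMSO (SD, n = 4). The 2 times were scored on different sites, and the same interaction over all 539 members was -2.60 points (exact permutation p = 0.452).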

How the results depend on the processing

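All values are ACBI-1 minus DMSO, in percentage points unless stated. Lists cut to equal length cannot show a general loss of peaks. With lists cut to their 26145 widest peaks, 14 clusters remained: members with a peak differed by 0.286, edge sites by -1.94, centre sites by 2.05, the longest gap by -2.46, dense minus isolated by 4.97 and constant-site width by -27.0 bp. Edge minus centre at DMSO-open sites was then 1.93, edge minus centre at 24 h minus 3 h -14.1 (exact permutation p = 0.0401), lost edge and centre sites 9.03% and 8.64% (17.8% and 17.8% with the lists as deposited), and 0 clusters had fewer sites. With a gap of at most 5 kb only 1 cluster remained: edge sites differed by -12.5, centre sites by -10.7, occupied span by 0.272, width by 65.9 bp and dense minus isolated by 7.51, the contrasts of times and of lines in edge minus centre were 7.14 and -21.4, lost edge and centre sites 10.0% and 6.25%, and 0 clusters were called. With a gap of at most 20 kb edge minus centre was 0.142, MOLT4 minus DND41 4.56 (exact permutation p = 0.00463), and 144 of 245 clusters were called.

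The edge minus centre change (-2.00) was 1.35 with at least 8 libraries, 0.767 with chains of at least 6, -7.19 with at least 12, 1.18 with only the outermost site as edge, -2.77 (exact permutation p = 0.0463) within bins of DMSO peak width, and 0.111 without the 6 antigen receptor and centromere-flanking clusters. At DMSO-open sites (-1.45) these were 2.56, 0.00754, -12.6 (-6.20 without IGH), 2.26, -4.04 (exact permutation p = 0.034) and 0.877, with 0.389 for the outermost 2 sites as edge and 0.589 for a common minimum width. That minimum gave 7.28 (exact permutation p = 0.0494) for MOLT4 minus DND41. Dense minus isolated was -3.02 with at least 2 libraries, 0.992 with at least 8, -1.88 with chains of at least 6 and -2.47 without those 6 clusters. Constant-site width was -40.1 bp with at least 8 libraries, and -66.6 bp with exact permutation p = 0.150 when labels were exchanged over all libraries.

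Of 56 clusters, 32 had fewer sites; the count was 21 when labels were exchanged over all libraries, 95 of 176 with at least 2 libraries, 4 of 11 with at least 8, 109 of 225 with chains of at least 6, 6 of 7 with at least 12 (5 of 6 without IGH) and 17 of 42 with a common minimum width. Lost edge sites made up 10.1% and lost centre sites 11.4% with at least 8 libraries, and 23% and 11.5% with chains of at least 12 (centre 13.4% without IGH). Replicate numbers did not pair the libraries: deviations of same-numbered libraries correlated between -0.0518 and 0.00471 over the 4 lines and times. With the replicate block, whose exchanges are fewer, 0 clusters were called (smallest adjusted p = 0.0791, exact permutation test).

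Leaving out 1 library at a time gave -20.9 to -18.0 for members, -22.4 to -18.1 for edge, -20.0 to -17.6 for centre, -3.11 to 0.748 for edge minus centre, -3.05 to 2.62 for it at DMSO-open sites, -13.6 to -10.3 for span, 3.92 to 5.36 for the longest gap, -76.6 to -42.8 bp for width, -2.54 to -0.577 for dense minus isolated, 16 to 31 clusters with fewer sites (23 to 35 with the regions of all 16 libraries kept) and 0 with unequal edge and centre. Except where the regions of all 16 libraries were kept, regions and clusters were rebuilt each time, so the sites changed as well. At DMSO-open sites edge minus centre changed sign without DND41 DMSO 24 h replicate 1 (2.62) or 2 (0.465) and without DND41 DMSO 3 h replicate 1 (1.24). Over all sites it did so without the first pair (0.748 and 0.133). The cause of these changes was not tested, other than the lower number of clusters stated. The alternatives without named clusters were chosen after seeing the data.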
